A study of Homo sapiens with 6 samples.

Results

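MTAP, the enzyme that opens the methionine salvage pathway, was nearly absent from the 3 Control sh samples and present in the 3 VprBP sh samples. It is described here together with 9 genes of the same biochemistry, which are PRMT5, WDR77, CLNS1A, RIOK1, MAT2A, MAT2B, AHCY, ADI1 and MRI1. These 10 genes were taken by name from the 21494 genes of the count table, and each name matched 1 row. MTAP was chosen by its low counts in Control sh, so its difference between the groups is given as a description with no test. RNA-seq was performed on cells labelled G361, a human melanoma line, carrying either a control shRNA (Control sh, labelled WT) or an shRNA against DCAF1, the gene of VprBP (VprBP sh, labelled DCAF1 Knockdown), with 3 samples in each group. According to the methods, the knockdown rests on 1 hairpin against the coding region, delivered by lentivirus and followed by puromycin selection. The methods do not describe the handling of the control shRNA separately. Nothing says whether the 3 samples of a group came from separate cultures, so the p-values measure only the spread between these samples, which may be technical.

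Polyamine synthesis releases methylthioadenosine as a by-product. MTAP cleaves it into adenine, which purine salvage takes up, and a sugar phosphate that MRI1, APIP, ENOPH1 and ADI1 carry on towards methionine. Methionine is then activated by MAT2A, with its regulatory subunit MAT2B, to S-adenosylmethionine, the methyl donor of the cell, and AHCY removes the S-adenosylhomocysteine left after methyl transfer. PRMT5 is the main enzyme of symmetric arginine dimethylation. It works in a complex with WDR77 and reaches its substrates through the adaptors CLNS1A, RIOK1 and COPRS. Methylthioadenosine inhibits PRMT5, and cancer cells that have lost MTAP are known for depending on PRMT5 and MAT2A.

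Total counts ran from 18195949 to 26883948 per sample and overlapped between the groups. The mitochondrial share of counts did not overlap, at 1.96% to 1.98% in Control sh and 4.10% to 4.48% with the VprBP hairpin, and its part in the results was not tested. DCAF1 had 797, 971 and 838 normalized counts in Control sh, against 760, 507 and 481 in VprBP sh, a log2 fold change of -0.58 ± 0.17 (SE; quasi-likelihood test of edgeR, adjusted p = 0.0125) that did not reach 2-fold. The cells are named G361 in the labels, but their source is entered as LD611. Of 8 melanocyte-lineage markers TYR, DCT, SOX10 and S100B were not analysed here, MLANA and TYRP1 had at most 5 counts in any sample, and the summed level of the 4 analysed was 199 to 236 normalized counts in Control sh, against 244 to 308 in VprBP sh. Of 11 urothelial markers KRT20 and UPK3A were not analysed here. The sum of the other 9 was 222133 to 235718 in Control sh, against 23871 to 27503 in VprBP sh. In this list UPK1B was at 0 counts in all 3 VprBP sh samples, and KRT14 went from 79034 ± 5746 to 4.67 ± 5.66 normalized counts (SD, n = 3). Of the 8 tested, 7 were lower on the adjusted p-value (under 0.05). PPARG went the other way, from 277 ± 66.7 to 726 ± 24.3, and UPK1A had at most 5 counts in any sample. The sum of 8 luminal epithelial markers went from between 62053 and 68794 to between 112666 and 143283, with SCGB2A2 at 0 counts in all 3 Control sh samples. On the adjusted p-value 7 of the 8 were higher in VprBP sh, and ESR1 was lower, with a log2 fold change of -0.61. GATA3, in the luminal list, had 7, 1 and 0 counts in Control sh, against 1580, 1334 and 1873 in VprBP sh. Keratins made up most of both sums, while UPK1B and UPK2 had means of 650 and 211 normalized counts in Control sh. These marker sums move with the groups across the whole comparison, and the part of the markers in the results below was not tested. The labels disagree on the cells, and whether both groups hold the same line was not settled here, so the hairpin and any difference between the cells themselves cannot be told apart in any value set between Control sh and VprBP sh. Fewer cells of a type and less RNA per cell cannot be told apart in such samples.

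The promoter windows of MTAP and of 3 members that were higher in VprBP sh are shown first. MTAP, chosen by its low Control sh counts, differs most of the 10 between the groups. MRI1, ADI1 and WDR77 were picked because they share a short motif, which the choice of the 10 genes did not use. RefSeq (GRCh38.p14) had windows for all 10 genes, 13 in number, each reaching from 250 bases before to 50 bases after an annotated start. The capitals mark CACGTG, the E-box, a palindrome read the same on both strands and bound by MYC and related factors. The windows are chr9:21802386-21802685 on the plus strand for MTAP, chr19:13764272-13764571 on the plus strand for MRI1, chr2:3519482-3519781 on the minus strand for ADI1 and chr1:111449207-111449506 on the minus strand for WDR77.
MTAP: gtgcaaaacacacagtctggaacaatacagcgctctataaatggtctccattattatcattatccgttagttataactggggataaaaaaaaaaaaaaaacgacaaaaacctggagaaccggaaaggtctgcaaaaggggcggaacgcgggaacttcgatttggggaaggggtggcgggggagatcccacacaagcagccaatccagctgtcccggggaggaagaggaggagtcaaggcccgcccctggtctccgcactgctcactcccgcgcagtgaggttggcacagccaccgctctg
MRI1: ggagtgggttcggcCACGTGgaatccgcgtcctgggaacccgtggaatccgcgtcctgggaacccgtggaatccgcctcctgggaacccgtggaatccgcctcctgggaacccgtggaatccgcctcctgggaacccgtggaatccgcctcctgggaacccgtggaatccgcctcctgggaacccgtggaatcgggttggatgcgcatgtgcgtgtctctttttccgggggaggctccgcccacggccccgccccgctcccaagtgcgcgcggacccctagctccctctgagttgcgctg
ADI1: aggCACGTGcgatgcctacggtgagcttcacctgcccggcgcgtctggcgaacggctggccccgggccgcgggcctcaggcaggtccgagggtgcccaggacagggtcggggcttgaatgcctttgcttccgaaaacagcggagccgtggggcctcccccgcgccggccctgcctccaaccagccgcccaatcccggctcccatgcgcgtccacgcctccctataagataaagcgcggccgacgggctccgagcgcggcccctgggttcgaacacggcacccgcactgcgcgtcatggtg
WDR77: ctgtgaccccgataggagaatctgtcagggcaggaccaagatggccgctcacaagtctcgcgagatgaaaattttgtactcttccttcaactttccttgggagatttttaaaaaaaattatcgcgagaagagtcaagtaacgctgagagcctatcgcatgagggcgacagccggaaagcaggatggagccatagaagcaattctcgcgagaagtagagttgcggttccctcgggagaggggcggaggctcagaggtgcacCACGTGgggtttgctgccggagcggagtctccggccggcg
The E-box stood in 3 of the 13 member windows and in 7.26% of all 35116 windows, and its first base lay at position -236 in MRI1, -247 in ADI1 and 11 in WDR77, counted from 1 at the annotated start. No window of MAT2A, MAT2B, CLNS1A or RIOK1, also higher in VprBP sh, held CACGTG, nor did those of PRMT5 and AHCY. The MTAP window held no CACGTG and had 15 CG dinucleotides, against a median of 14 over all windows. The motif GGGCGG, the GC box, was found on either strand in windows of 9 of the 10 genes and in 45.0% of all windows. CCAAT was found in those of 5, MTAP included, and in 34.6% of all windows. The motifs were chosen after the sequences had been read, and a match describes letters only.

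**Figure D1:**
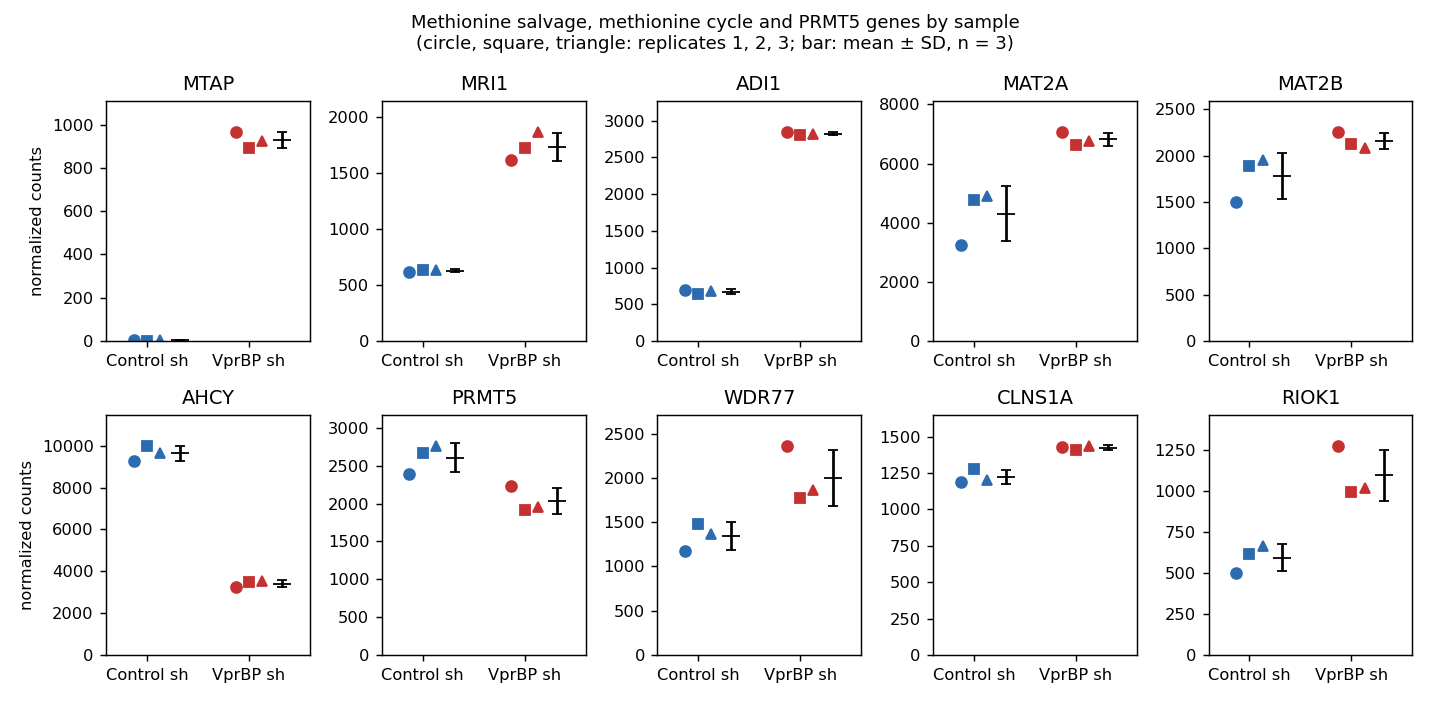
Normalized counts of the 10 genes in each sample (y axis, linear from 0), with Control sh in blue, VprBP sh in red, symbols for replicates 1 to 3, and the mean ± SD (n = 3) in black. MTAP lies at 2.17 to 5.69 in Control sh, against 892 to 965 in VprBP sh, AHCY and PRMT5 are lower in VprBP sh, and the other 7 are higher.

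MTAP (ENSG00000099810.21) spans bases 21802636 to 21937651 of chromosome 9 (hg38, plus strand), and its canonical transcript in GENCODE 44 has 8 exons. Control sh gave 3, 2 and 6 counts for it, and VprBP sh gave 864, 858 and 1205. The groups were thus far apart, with every Control sh sample at 2 to 6 counts, close to the 3 counts taken as the smallest detection. After scaling by the upper quartile method the means were 3.78 ± 1.78 and 927 ± 36.7 normalized counts (SD, n = 3). Over the summed reads, 11 against 2927, the level in VprBP sh was 239 times that in Control sh. The Control sh samples thus had 0.419% of the VprBP sh level. An exact 95% interval of 133 to 479 for the ratio covers counting error only. It takes no account of the choice of MTAP by these same counts. In GENCODE 44, 5 other genes overlap MTAP, of which only ENSG00000265194, on the opposite strand, was in the table, and it had 0 counts throughout Control sh.

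Past MTAP, CDKN2B-AS1, CDKN2A, CDKN2B and DMRTA1, whose starts lie 192 to 644 kb from that of MTAP, were at 0 throughout Control sh and had between 82 and 4443 counts with the VprBP hairpin. Before MTAP no listed gene had this pattern, since MIR31HG (243 kb away, log2 fold change of -1.53) and HACD4 (771 kb, -4.91) were called down, FOCAD (1144 kb) was lower at -0.84, IFNE had at most 11 counts in any sample, and KLHL9 (467 kb) and MLLT3 (1180 kb) had overlapping groups.

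**Figure D2:**
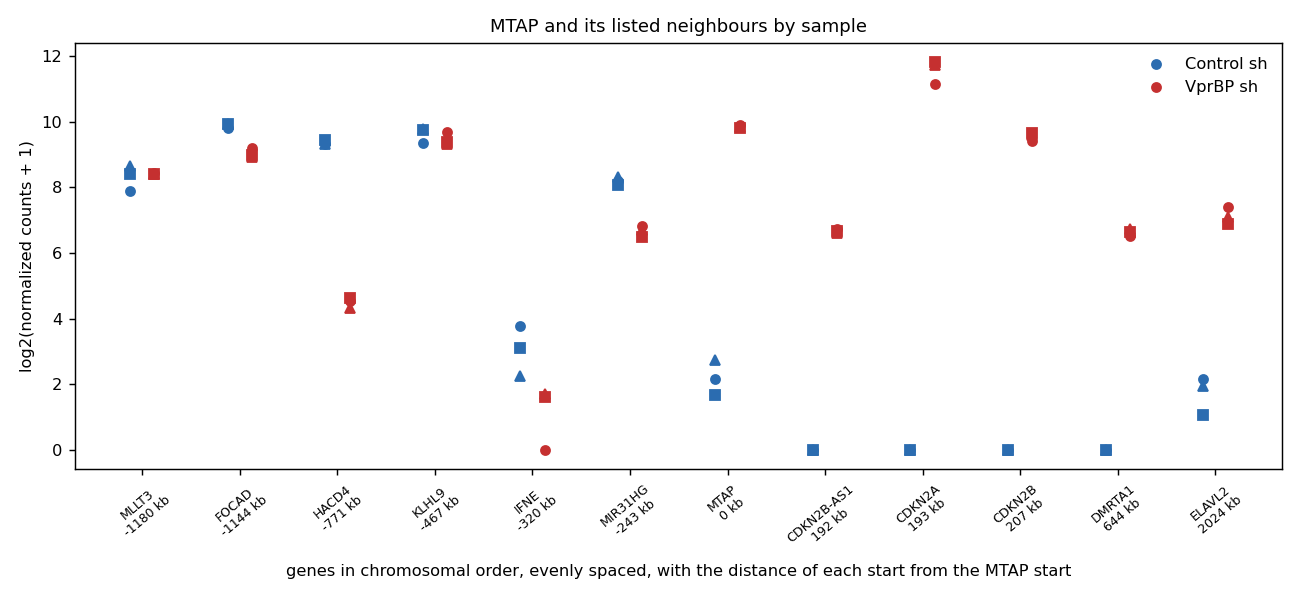
Level of MTAP and 11 listed neighbours on chromosome 9 as log2(normalized counts + 1) (y axis), in chromosomal order and evenly spaced along the x axis, with Control sh in blue and VprBP sh in red. From MTAP to ELAVL2 the Control sh samples lie between 0 and 2.742 while the VprBP sh samples lie above 6, and HACD4 and MIR31HG are lower in VprBP sh while KLHL9 and MLLT3 show overlapping groups.

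The further enzymes of methionine salvage were higher in VprBP sh or did not pass the test. Calls needed both an adjusted p-value under 0.05 and more than 2-fold change. Of all 16756 genes tested 46.4% were called, 24.5% up and 22.0% down, and 76.4% passed on the adjusted p-value whatever their fold change. Of the 9 members other than MTAP, 2 were called up and 1 down, and all 9 passed on the adjusted p-value. Their median log2 fold change was 0.58, against 0.08 for all genes tested. Groups did not overlap in any of the 9, nor in 79.5% of all genes tested.
ADI1, the dioxygenase near the end of the pathway, had 695, 637 and 686 normalized counts in Control sh, against 2842, 2801 and 2822 in VprBP sh. The samples of a group lay close together and the groups far apart, with a log2 fold change of 2.07 ± 0.08 (SE, adjusted p = 1.96e-08 from edgeR), the largest among the 9. MRI1, the isomerase that acts directly after MTAP, had 614, 636 and 631 normalized counts in Control sh, against 1611, 1723 and 1863 in VprBP sh. It rose by a log2 fold change of 1.47 ± 0.09 (SE, adjusted p = 4.19e-07 from edgeR). Among the other salvage genes, APIP, the dehydratase between MRI1 and ENOPH1, rose from 289 ± 48.3 to 610 ± 54.1 normalized counts (SD, n = 3). Its log2 fold change was 1.08 ± 0.14 (SE, adjusted p = 8.38e-05 from edgeR), and it fell below 2-fold with TMM factors (0.98), with DESeq2 (0.96) and without Control sh replicate 1 (0.94). ENOPH1, the enolase-phosphatase, had 1345 ± 81.4 and 1205 ± 122 normalized counts and overlapping groups (adjusted p = 0.172 from edgeR). KYAT1, a transaminase that can complete the pathway, had 140 ± 20.3 and 140 ± 16.1 (adjusted p = 0.975 from edgeR). TAT, the other transaminase listed, had at most 6 counts in any sample and was not tested. Apart from MTAP, 3 of the 5 salvage genes tested were therefore called up and 0 down, with ENOPH1 and KYAT1 not passing the test.

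Of the genes listed for the methionine cycle more were higher than lower in VprBP sh on the adjusted p-value, and AHCY and MTRR were lower. MAT2A, which makes S-adenosylmethionine, had 3242, 4758 and 4907 normalized counts in Control sh, against 7060, 6636 and 6747 in VprBP sh. Replicate 1 of Control sh lay below the other two, and every VprBP sh sample lay above every Control sh sample. The log2 fold change was 0.66 ± 0.14 (SE, adjusted p = 0.00197 from edgeR), under 2-fold, and was 0.49 without Control sh replicate 1. MAT2B, the regulatory subunit, had 1500, 1893 and 1948 normalized counts in Control sh, against 2253, 2125 and 2086 in VprBP sh. Its log2 fold change of 0.27 ± 0.11 (SE, adjusted p = 0.0401 from edgeR) stood only in part. The adjusted p was 0.143 with TMM factors, 0.238 with DESeq2, 0.076 with a replicate block, and 0.0547 to 0.0805 without Control sh replicate 1 or 2 or any 1 of the VprBP sh samples.
AHCY, which clears S-adenosylhomocysteine, went the other way, with 9260, 9989 and 9672 normalized counts in Control sh, against 3223, 3474 and 3540 in VprBP sh. Its log2 fold change was -1.50 ± 0.08 (SE, adjusted p = 1.41e-07 from edgeR), and it was the only one of the 9 members called down. Levels set between genes were taken as normalized counts per kb of the canonical transcript. On that scale the ratio of MAT2A to AHCY was 0.267, 0.364 and 0.387 in Control sh and 1.67, 1.46 and 1.45 in VprBP sh, so that the order of both genes was reversed. Their genes share no transcript, but MAT2A overlaps GGCX on the opposite strand in GENCODE 44, and the use of strand in counting is not given in the sources used here.
Of the 13 methionine cycle genes tested, 2 were called up and 2 down, against 24.5% and 22.0% of all genes tested. On the adjusted p-value alone 9 of the 13 were higher and 2 lower, where 76.4% of all genes tested passed in either direction. The list also holds genes beside the cycle itself, such as METTL16 and the relatives of AHCY. Their median log2 fold change was 0.60, against 0.08 for all genes. MTRR, which keeps methionine synthase active, fell from 1986 ± 146 to 955 ± 85.9 normalized counts (SD, n = 3), with a fitted log2 fold change of -1.06 that was -0.85 with library size alone. MTR, methionine synthase itself, went from 488 ± 35.7 to 951 ± 118 (log2 fold change of 0.96, adjusted p = 5.07e-05 from edgeR), just under 2-fold, and was past it with library size alone (1.17) and without VprBP sh replicate 3 (1.01). CBS, which draws homocysteine into cysteine synthesis, had 9, 2 and 1 counts in Control sh, against 515, 500 and 890 in VprBP sh. This ratio was 142, with an exact 95% interval of 81.3 to 276 for counting error. A near-identical copy of CBS is annotated in the human genome, and reads can be split between such copies in counting, so its level is uncertain. BHMT2, a methyltransferase that remakes methionine, had 9 counts over the Control sh samples and 123 over the VprBP sh samples. AHCYL1 and AHCYL2, relatives of AHCY, were both higher in VprBP sh, with log2 fold changes of 0.40 and 0.82, where AHCY was lower. METTL16, a methyltransferase that controls the splicing of MAT2A, had a log2 fold change of 0.35 (adjusted p = 0.00598 from edgeR).

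PRMT5 itself was lower in VprBP sh and 3 of its partners among the members were higher. PRMT5 had 2397, 2667 and 2763 normalized counts in Control sh, against 2233, 1917 and 1953 in VprBP sh. The highest VprBP sh sample, replicate 1, lay close under the lowest Control sh sample, also replicate 1. The log2 fold change was -0.36 ± 0.09 (SE, adjusted p = 0.00563 from edgeR), and the test was lost with library size alone (-0.15, adjusted p = 0.191) and with replicates 2 and 3 summed into 1 sample (-0.31, adjusted p = 0.099). WDR77, its constant partner, had 1175, 1482 and 1372 normalized counts in Control sh, against 2363, 1779 and 1868 in VprBP sh, a log2 fold change of 0.58 ± 0.13 (SE, adjusted p = 0.00245 from edgeR). GENCODE 44 has ATP5PB overlapping WDR77 on the opposite strand.
RIOK1, the adaptor that recruits nucleolin, had 501, 613 and 666 normalized counts in Control sh, against 1274, 993 and 1019 in VprBP sh. It reached a log2 fold change of 0.88 ± 0.14 (SE, adjusted p = 0.000272 from edgeR), the nearest of the uncalled members to 2-fold, which it passed with library size alone (1.09). CLNS1A, the adaptor for the Sm proteins of the spliceosome, had 1188, 1277 and 1202 normalized counts in Control sh, against 1429, 1405 and 1436 in VprBP sh. This small step, a log2 fold change of 0.22 ± 0.08 (SE, adjusted p = 0.0298 from edgeR), did not pass with TMM factors (adjusted p = 0.181), DESeq2 (0.327) or a replicate block (0.0653). Nor did it pass without Control sh replicate 2 or 3 or without VprBP sh replicate 2 or 3, where the adjusted p was 0.0589 to 0.107. COPRS, the adaptor that directs PRMT5 to histones, is not among the members but completes the set. It fell from 1359 ± 130 to 472 ± 34.6 normalized counts (SD, n = 3), with a fitted log2 fold change of -1.53 ± 0.11 (SE, adjusted p = 1.13e-06 from edgeR).

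The mix of partners per PRMT5 differed between the groups. Per kb of canonical transcript, WDR77 stood at 0.460, 0.521 and 0.466 of the PRMT5 level in Control sh and at 0.993, 0.870 and 0.897 in VprBP sh. RIOK1 stood at 0.209 ± 0.0151 of PRMT5 in Control sh and 0.495 ± 0.0270 in VprBP sh, and COPRS at 1.38 ± 0.0323 and 0.621 ± 0.0936 (SD, n = 3). Of the summed level of the 3 adaptors, COPRS made up 70.1% to 71.6% in Control sh, against 33.5% to 39.7% in VprBP sh. RIOK1 made up 10.7% ± 0.641 and 30.0% ± 3.72 (SD, n = 3), and CLNS1A 17.1% to 19.9% and 32.2% to 33.2%. None of these shares overlapped between the groups, nor did the groups in 79.5% of all genes tested. The shares add up to a whole, so a lower COPRS raises the share of the others. CLNS1A itself had a log2 fold change of only 0.22. The ratios and shares compare transcripts within a sample and are unaffected by the scaling between samples. With 3 samples against 3, an exact two-sided permutation test cannot go below p = 0.1.

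**Figure D3:**
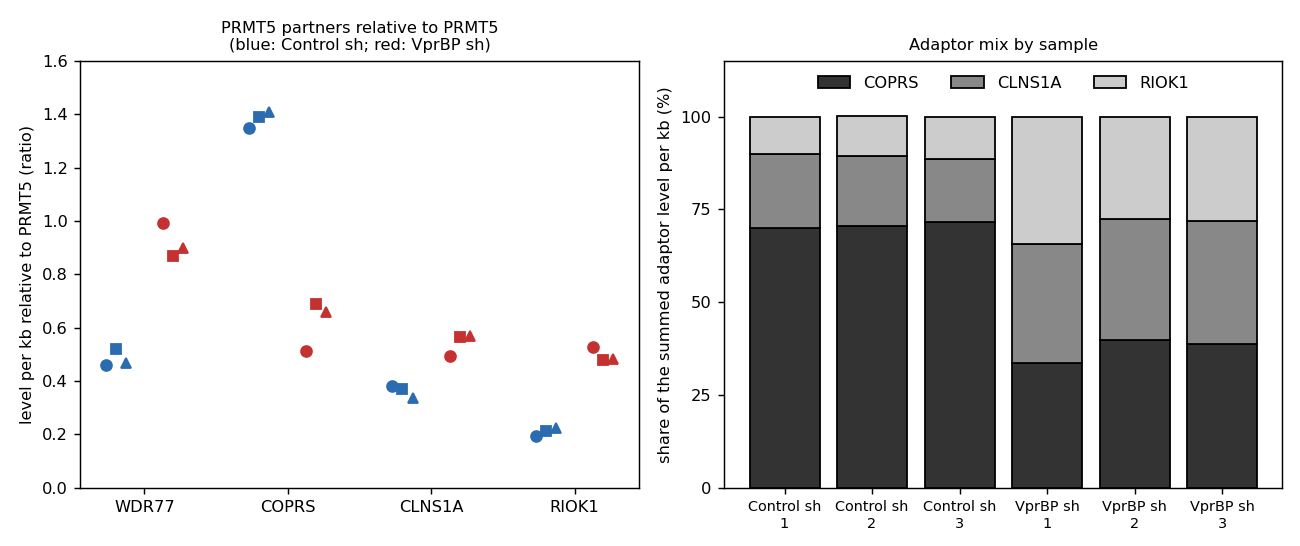
Left, level per kb of WDR77, COPRS, CLNS1A and RIOK1 relative to PRMT5 in each sample, with Control sh in blue, VprBP sh in red and symbols for replicates. Right, share of each adaptor in the summed adaptor level per kb (%), where COPRS takes 70.1% to 71.6% in Control sh, against 33.5% to 39.7% in VprBP sh.

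The order of the 10 genes by level per kb differed between the groups as well. In Control sh it ran from AHCY (4480 ± 170 normalized counts per kb, SD, n = 3) through MAT2A, PRMT5, MAT2B, WDR77, CLNS1A, ADI1 and RIOK1 to MRI1 (197 ± 3.59) and MTAP (0.627 ± 0.295), where only MAT2A and PRMT5 overlapped as neighbours. In VprBP sh it ran from MAT2A (2420 ± 78.1) through AHCY, ADI1, MAT2B, PRMT5, WDR77, MRI1 and CLNS1A to RIOK1 (438 ± 62.1) and MTAP (154 ± 6.08), where PRMT5 overlapped WDR77 and CLNS1A overlapped RIOK1. MTAP was thus the lowest of the 10 in both groups. ADI1 went from position 7 to position 3. The order depends on the length used. With all annotated exons of a gene merged, ADI1 took position 9 in Control sh, against 5 in VprBP sh. On that length MAT2B took position 6 in Control sh, against 9 in VprBP sh.

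Polyamine genes, among them oxidases and regulators that do not feed MTAP, were more often lower than higher in VprBP sh. The synthesis enzymes ODC1, AMD1, SRM and SMS did not move in 1 direction. Genes of purine salvage moved in both directions. Of 10 polyamine genes, 1 was called up and 2 down, where 46.4% of all genes tested were called. Their median log2 fold change was -0.60 against 0.08 for all genes, and on the adjusted p-value alone 1 was higher and 6 lower. ODC1, the first enzyme of polyamine synthesis, rose from 194 ± 20.8 to 1090 ± 145 normalized counts (SD, n = 3), with a fitted log2 fold change of 2.48 ± 0.14 (SE, adjusted p = 1.88e-07 from edgeR). SMS, spermine synthase, which releases methylthioadenosine, fell from 8738 ± 275 to 3336 ± 133, and PAOX, a polyamine oxidase, from 90.2 ± 19.8 to 32.5 ± 6.96. SRM, spermidine synthase, which also releases it, had 1021 ± 135 and 1086 ± 49.2 normalized counts with overlapping groups (adjusted p = 0.487 from edgeR). AMD1, which supplies the aminopropyl groups, had a log2 fold change of -0.91, and AZIN1, which protects ODC1 from antizyme, one of -0.95. Both were past 2-fold with TMM factors (-1.01 and -1.04) and with DESeq2 (-1.03 and -1.07).
Of 5 purine salvage genes, 1 was called up and 1 down, where 46.4% of all genes tested were called. APRT, which turns the adenine released by MTAP into AMP, rose from 668 ± 101 to 2132 ± 292 normalized counts (SD, n = 3), with a fitted log2 fold change of 1.68 ± 0.14 (SE, adjusted p = 2.95e-06 from edgeR). ADA, adenosine deaminase, had 9078, 7830 and 7830 normalized counts in Control sh, against 439, 536 and 576 in VprBP sh. Its log2 fold change was -3.99 ± 0.13 (SE, adjusted p = 5.96e-09 from edgeR). PNP and ADK, which act on nucleosides, had log2 fold changes of 0.37 and 0.35, and HPRT1, which salvages hypoxanthine and guanine, had one of -0.81.

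The substrates of PRMT5 and the other arginine methyltransferases were listed to see what surrounds the complex. Of 8 substrates, 0 were called up and 1 down, against 24.5% and 22.0% of all genes tested. Their median log2 fold change was -0.17, and on the adjusted p-value alone 3 were higher and 4 lower. The one called was SNRPB, which encodes the Sm proteins B and B', at 16080 ± 293 normalized counts in Control sh, against 4701 ± 282 in VprBP sh (SD, n = 3), with a fitted log2 fold change of -1.77 ± 0.08 (SE, adjusted p = 5.11e-08 from edgeR). SNRPD3, another Sm protein, was higher in VprBP sh with a log2 fold change of 0.76, and SNRPD1 lower with -0.39, so that the Sm genes on the list did not move in 1 direction. Of 10 genes of the SMN complex, which loads methylated Sm proteins onto RNA, 0 were called up and 2 down. The 2 were SMN1 and SMN2, nearly identical copies whose reads can be split between them in counting, and whose summed level was 2020, 2160 and 2150 normalized counts in Control sh, against 530, 464 and 412 in VprBP sh. SMN2 alone had 1010, 1044 and 1142 counts in Control sh, against 4, 13 and 14 in VprBP sh (log2 fold change of -6.83). SMN1 alone was called at -1.10 and was under 2-fold with library size alone (-0.89).
Of 7 other arginine methyltransferases tested, 2 were called up and 1 down, beside 24.5% and 22.0% of all genes tested. PRMT6, which makes asymmetric marks on histone H3, rose from 233 ± 37.8 to 1143 ± 14.0 normalized counts (SD, n = 3), with a fitted log2 fold change of 2.29 ± 0.13 (SE, adjusted p = 2.24e-07 from edgeR). PRMT3, which methylates a ribosomal protein, fell from 667 ± 32.8 to 213 ± 54.9, with a log2 fold change of -1.66 ± 0.17 (SE, adjusted p = 1.33e-05 from edgeR). PRMT2 was called up at 1.03 and was under 2-fold with TMM factors (0.93), with DESeq2 (0.91) and without Control sh replicate 1 (0.95). PRMT1, the main asymmetric enzyme, and CARM1 had log2 fold changes of -0.55 and -0.45. PRMT7, which makes monomethyl marks, had 708 ± 144 and 753 ± 40.6 normalized counts and overlapping groups (adjusted p = 0.601 from edgeR).

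**Figure D4:**
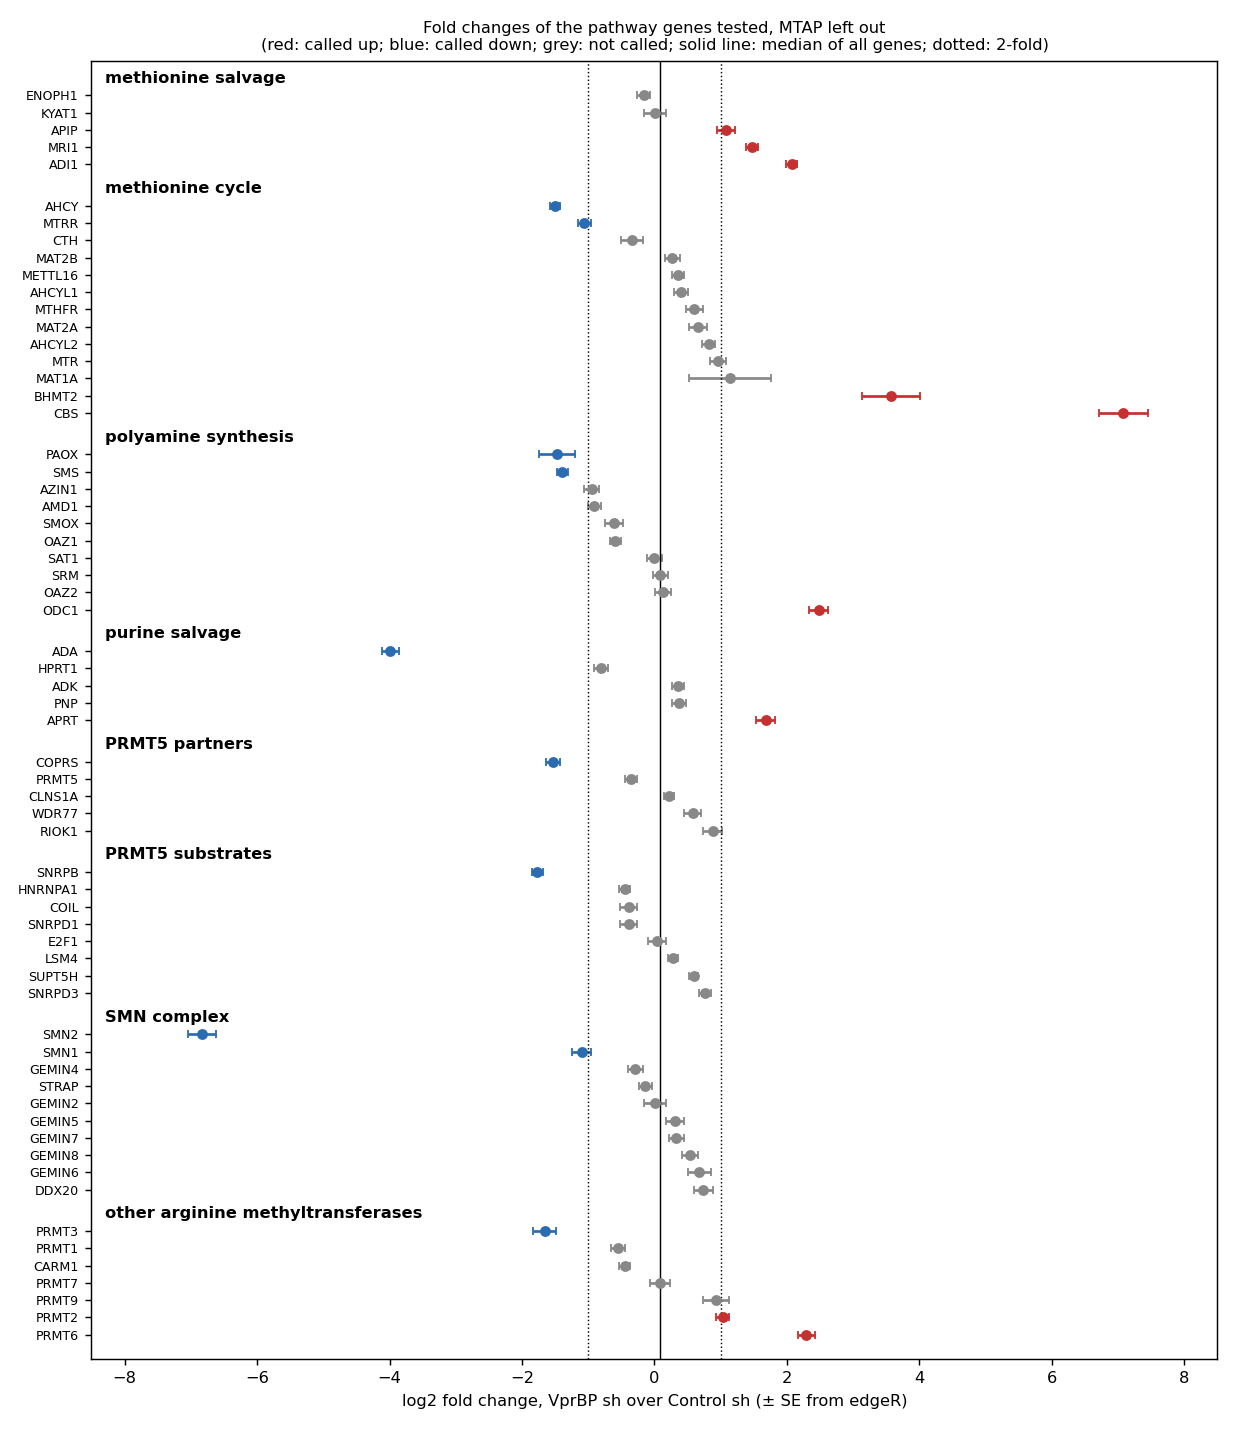
Log2 fold change of VprBP sh over Control sh (x axis, ± SE from edgeR) for the genes of 8 lists that were tested, MTAP left out. Red points were called up, blue points down, grey points were not called; the solid line marks the median of all genes (0.08) and the dotted lines 2-fold.

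The genes whose values ran most like those of MTAP over the 6 samples, by Pearson's r on log2(normalized counts + 1), were ARHGEF6 (0.9997), ECHDC2 (0.9996), SMIM7 (0.9994), EPB41L4A-AS1 (0.9994) and SYK (0.9994). The comparison took in 12815 genes whose higher group mean reached 100 normalized counts, of which 1024 had r over 0.99. The samples fall into 2 groups, and the step between them makes up nearly all of such an r. ARHGEF6 was also low in Control sh, at 44.8 ± 13.6 normalized counts against 1728 ± 56.3 in VprBP sh (SD, n = 3). SYK, by contrast, went from 838 ± 39.1 to 1817 ± 25.3, so that likeness by r does not mean a like fold change. Among the members the r with MTAP was positive for 7, from 0.7594 for MAT2B to 0.9983 for ADI1, and negative for PRMT5 (-0.8761) and AHCY (-0.9960).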

How the data were processed

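Poly(A) RNA-seq of 3 Control sh and 3 VprBP sh samples was analysed, with groups and replicate numbers taken from the sample titles. Per the methods, single-end reads were aligned to hg38 with STAR and quantified per gene in Partek Flow. The table deposited by the authors holds estimated counts, neither normalized nor pooled, for 21494 genes with a sum of at least 10. Total counts per sample ran from 18195949 to 26883948. Counts were rounded and tested on all 6 samples with edgeR 4.0.16 in R 4.3.3 (quasi-likelihood test, upper quartile factors at 0.75, filter on low counts with a minimum of 10, no replicate block), with Benjamini-Hochberg adjustment over 16756 genes. The design had been written for counts. It replaces the gene-specific test that the authors ran in Partek Flow. For normalized counts, each count was divided by its effective library size and multiplied by the mean of those sizes. Standard errors (SE) were derived from the log2 fold change and its F statistic. Alternatives used TMM factors, library size alone, DESeq2 1.42.0, limma-voom (limma 3.58.1), other filters on low counts, a replicate block, edgeR's test against a 2-fold change, replicates 2 and 3 summed, and each sample left out. The test was tried on simulated counts. The smallest detection was set at 3 counts, 2.30 to 3.48 normalized counts, for counting error only. Transcript lengths and overlaps came from GENCODE 44, in which 18962 of the gene identifiers had the same version. The methods name GENCODE 29. Library kits differ between the labels (SMARTER) and the methods (a stranded KAPA kit). The members and lists were chosen with earlier results of these data known. Genes named are the 10 members, DCAF1, those of the lists, marker genes and the 5 genes most like MTAP.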

Additional observations from a re-analysis of the deposited data

How the results depend on the processing

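Across 15 alternatives the number of the 9 members called was 3 or 4, and ADI1, MRI1 and AHCY were called in all 15. The fourth was RIOK1 with library size alone. Over all genes the median log2 fold change depended on the scaling, at 0.08 by upper quartile, -0.01 by TMM, -0.04 by DESeq2 and 0.29 by library size. The log2 ratio of MTAP group means was 7.65 to 8.35 over 12 alternatives. A minimum of 10 counts in every sample called 4690 genes, against 7778, since it removes genes that are off in a group, MTAP among them. Of the 57 pathway genes outside the members, a few of them not tested, 16 were called, where 46.4% of all genes tested were called. The 16 became 12 to 17 over the alternatives. DCAF1 did not pass with library size alone (-0.37), with replicates 2 and 3 summed (-0.46) or in the test against a 2-fold change (-0.58). Single samples left out in turn gave 7949 to 8142 genes called, 3 to 3 members, 15 to 17 pathway genes, and log2 fold changes of -0.82 to -0.46 for DCAF1. As a check of pairing, samples of the same number had deviations from the group mean that correlated at -0.173, -0.0539 and -0.121, so the numbers were not taken to pair the samples. The replicate block called 7686 genes, 3 members and 16 pathway genes, with DCAF1 at -0.60 and MTAP at 7.94, and it moved CLNS1A and MAT2B past 0.05. Counts of 3 or fewer limit what can be said of MTAP in Control sh.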
